A study of Mus musculus with 9 samples.

Results

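Expression of 10 genes of the Notch pathway was examined in innate lymphocytes from the epithelium of the mouse small intestine. The genes were taken by symbol: the receptor genes Notch1, Notch2, Notch3 and Notch4, the nuclear genes Rbpj and Maml2, and the target and feedback genes Hes1, Hey1, Nrarp and Dtx1. All 10 were found among the 19938 genes tested. RNA came from CD3- CD45+ cells of NOD-SCID mice aged 8 to 10 weeks, sorted to a purity over 98%, and was read on Affymetrix Mouse Gene 1.0ST arrays, 1 sample to an array. The labels name 3 populations with 3 arrays each, numbered as biological replicates: Ly49E+CD8aa+, Ly49E+CD8aa- and Ly49E-CD8aa+. All mice carried the SCID defect, which stops rearrangement of antigen receptor genes, so T and B cells do not mature in any of the populations. How many mice contributed to each array is not stated in the labels, so the p-values measure only the spread between these samples.

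Notch receptors are surface proteins that are cut when they bind ligands of the Delta and Jagged families on a neighbouring cell. The cut frees the intracellular part, which enters the nucleus, binds the DNA-binding protein RBPJ and recruits a Mastermind coactivator, and this complex switches on genes such as Hes1, Hey1, Nrarp and Dtx1. Notch signals commit lymphoid progenitors to the T lineage in the thymus, take part in the development of innate lymphoid cells, and keep the stem and progenitor cells of the intestinal crypt from becoming secretory cells.

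The transcript of the first sort marker followed the labels. Klra5, which encodes Ly49E and belongs to a family of near-identical genes, averaged 11.40 ± 0.10 on Ly49E+CD8aa+ arrays, 11.43 ± 0.07 on Ly49E+CD8aa- arrays and 6.59 ± 0.98 on Ly49E-CD8aa+ arrays (log2 level, SD, n = 3 each). Cd8a, which encodes the CD8 alpha chain, averaged 12.55 ± 0.07 on Ly49E+CD8aa+ arrays, 11.42 ± 0.14 on Ly49E+CD8aa- arrays and 12.58 ± 0.07 on Ly49E-CD8aa+ arrays, so it was lower in the CD8aa- cells and still high there. Cd8b1, for the CD8 beta chain, ran the other way, at 5.28 ± 0.03 on Ly49E+CD8aa+ arrays, 8.34 ± 0.22 on Ly49E+CD8aa- arrays and 5.30 ± 0.13 on Ly49E-CD8aa+ arrays. Cd3e, the transcript of a CD3 chain, averaged 11.75 on Ly49E+CD8aa+ arrays, 10.70 on Ly49E+CD8aa- arrays and 11.67 on Ly49E-CD8aa+ arrays although the cells were sorted as CD3-. It was thus lower where Rbpj was higher, with differences of 1.05 for Ly49E+CD8aa+ minus Ly49E+CD8aa- and -0.98 for Ly49E+CD8aa- minus Ly49E-CD8aa+ (limma adjusted p = 0.0263 and 0.0325).

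Of 7 innate lymphocyte markers, Gzma, Gzmb, Id2, Il2rb and Itgae were above 10 on all arrays. But 3 of the 7 (Il2rb, Itgae and Ncr1) were called by limma in each comparison with Ly49E+CD8aa-. Of all genes, 1.7% were called against Ly49E+CD8aa+ and 2.15% against Ly49E-CD8aa+. In each, 6 of the 7 had an unadjusted p under 0.05, beside 1880 and 2081 of the 19938 genes. Il2rb, for the IL-2 receptor beta chain, and Itgae, for the integrin CD103, had differences of 0.40 and 0.31 for Ly49E+CD8aa+ minus Ly49E+CD8aa-, and of -0.36 and -0.34 for Ly49E+CD8aa- minus Ly49E-CD8aa+. Ncr1 (NKp46) averaged 4.26 on Ly49E+CD8aa+ arrays, 9.69 on Ly49E+CD8aa- arrays and 4.40 on Ly49E-CD8aa+ arrays, and Klrb1c was dim on all (4.62 to 5.41). The called markers differed in the comparisons in which Rbpj did, and their part in the Rbpj values was not tested. Ptprc, which encodes CD45, lay between 11.74 and 11.92 on all 9 arrays. Transcripts of enterocytes, the absorptive cells of the gut lining, were read on every array and were highest on the replicate 1 array of each population. Values are log2 levels from robust multi-array averaging (RMA). They are compared here between populations for the same gene and not between genes, since probes differ in brightness, and in sorted bulk RNA fewer cells with a transcript and less of it per cell cannot be told apart.

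Of the 10 genes, Rbpj alone passed the threshold, and it did so in both comparisons that include Ly49E+CD8aa- cells. A gene was called when its Benjamini-Hochberg adjusted p over all 19938 genes was under 0.05 in limma, a linear model with moderated variances fitted to all 9 arrays. By the moderated F test over the 3 populations, 1 of the 10 genes was called, beside 2.03% of all genes. The F test gave Rbpj an adjusted p of 0.0249 and the other 9 genes adjusted p from 0.14, for Nrarp, to 0.972, for Notch1.

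Among CD8aa+ cells, Ly49E+CD8aa+ and Ly49E-CD8aa+ cells differed in 0 of the 10 genes by limma, beside 0.13% of all genes (0.0201% higher and 0.11% lower). At an unadjusted p under 0.05 there were 2, Maml2 and Dtx1, beside 834 of the 19938 genes, and in these 2 the arrays did not overlap, as in 6.25% of all genes. The median difference of the 10 genes was -0.05, against 0 over all genes, and the median size was 0.07 in both. Among Ly49E+ cells, Ly49E+CD8aa+ was lower than Ly49E+CD8aa- in 1 of the 10, Rbpj, beside 1.7% of all genes called, 0.476% higher and 1.22% lower. At an unadjusted p under 0.05 there were 2, beside 1880 of all genes. The arrays did not overlap in 4 (Rbpj, Nrarp, Notch2 and Notch4), as in 12.9% of all genes, and the median difference was -0.07, against 0.03 over all genes. In the remaining comparison, of Ly49E+CD8aa- with Ly49E-CD8aa+ cells, 1 of the 10 was higher, again Rbpj, beside 2.15% of all genes called, 1.35% higher and 0.802% lower, and 5 had an unadjusted p under 0.05, beside 2081 of all genes. Here the arrays did not overlap in 5 (Rbpj, Nrarp, Dtx1, Maml2 and Notch4), as in 12.7% of all genes, and the median size of a difference was 0.14, against 0.08 over all genes. Each pair of comparisons shares the 3 arrays of 1 population, so the comparisons are not independent of each other.

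**Figure D1:**
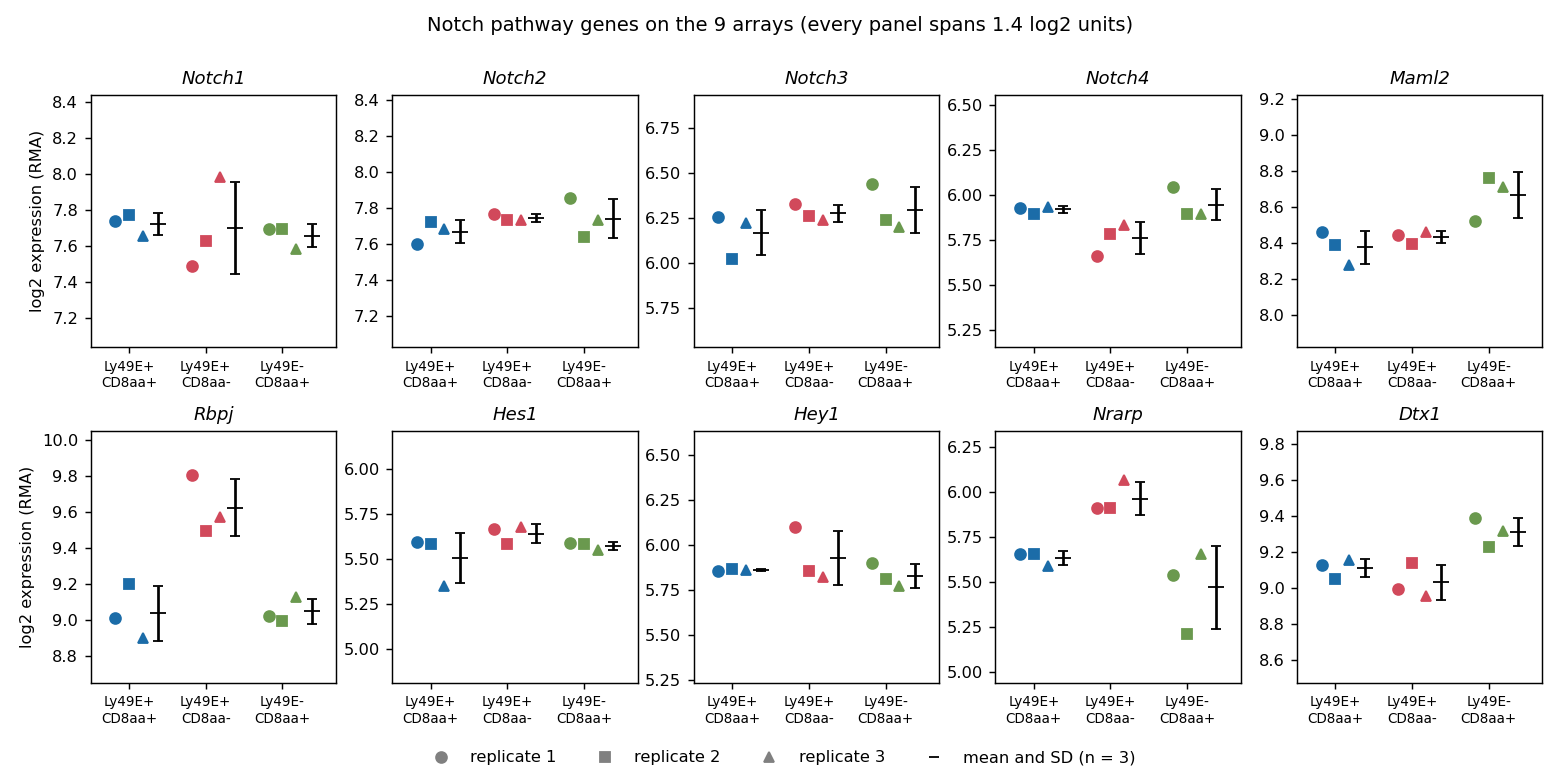
Log2 expression of the 10 Notch pathway genes, 1 panel per gene, by population from Ly49E+CD8aa+ at left through Ly49E+CD8aa- to Ly49E-CD8aa+. Symbols are single arrays by replicate number, bars are the mean and SD of 3 arrays, and every panel spans 1.4 log2 units, so that the Rbpj level of Ly49E+CD8aa- (9.50 to 9.80, against 8.90 to 9.20 elsewhere) can be set beside the overlapping Notch1 levels (7.49 to 7.98 over all arrays).

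Rbpj encodes the DNA-binding protein through which all Notch receptors reach their target genes, and which holds those genes down with corepressors when no Notch signal is present. It read 9.01, 9.20 and 8.90 on Ly49E+CD8aa+ arrays, 9.80, 9.50 and 9.57 on Ly49E+CD8aa- arrays, and 9.02, 9.0 and 9.13 on Ly49E-CD8aa+ arrays (log2 levels, replicates 1 to 3). Each Ly49E+CD8aa- array lay above all 6 arrays of the CD8aa+ populations, which overlapped each other. Set against Ly49E+CD8aa-, Ly49E+CD8aa+ cells had less Rbpj, with a log2 difference of -0.59 (SE 0.103, 95% interval -0.82 to -0.35, limma adjusted p = 0.0226, n = 3 each), a 1.5-fold difference. In Ly49E+CD8aa- it exceeded the level of Ly49E-CD8aa+ by 0.58 (SE 0.103, 95% interval 0.34 to 0.81, limma adjusted p = 0.0217, n = 3 each), a 1.49-fold difference. Between Ly49E+CD8aa+ and Ly49E-CD8aa+ the difference was -0.01, with a 95% interval from -0.24 to 0.22.

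The direction of these 2 differences was the same in all 18 alternatives run for each, while the call was kept in 10 of 18 for Ly49E+CD8aa+ minus Ly49E+CD8aa- and in 9 of 18 for Ly49E+CD8aa- minus Ly49E-CD8aa+. In the comparison of Ly49E+CD8aa+ with Ly49E+CD8aa-, the call ended without Ly49E+CD8aa+ replicate 1 or 3 (limma adjusted p = 0.0915 and 0.092) and without Ly49E+CD8aa- replicate 1 or 3 (0.0715 and 0.0678), with differences from -0.61 to -0.50. In the comparison of Ly49E+CD8aa- with Ly49E-CD8aa+, it ended without Ly49E+CD8aa- replicate 1 or 3 (limma adjusted p = 0.0674 and 0.0645) and without Ly49E-CD8aa+ replicate 1, 2 or 3 (0.0824, 0.0912 and 0.053), with differences from 0.49 to 0.62. A second row of the table carries the symbol Rbpj at a much dimmer signal and does not share the pattern. It averaged 4.58 ± 0.14 on Ly49E+CD8aa+ arrays, 4.47 ± 0.11 on Ly49E+CD8aa- arrays and 4.53 ± 0.18 on Ly49E-CD8aa+ arrays (log2, SD, n = 3 each), below the 25th percentile of genes on each array (4.67 to 4.79). With the mean of both rows in place of the brighter one, the differences became -0.24 and 0.26 and did not pass (limma adjusted p = 0.349 and 0.264).

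**Figure D2:**
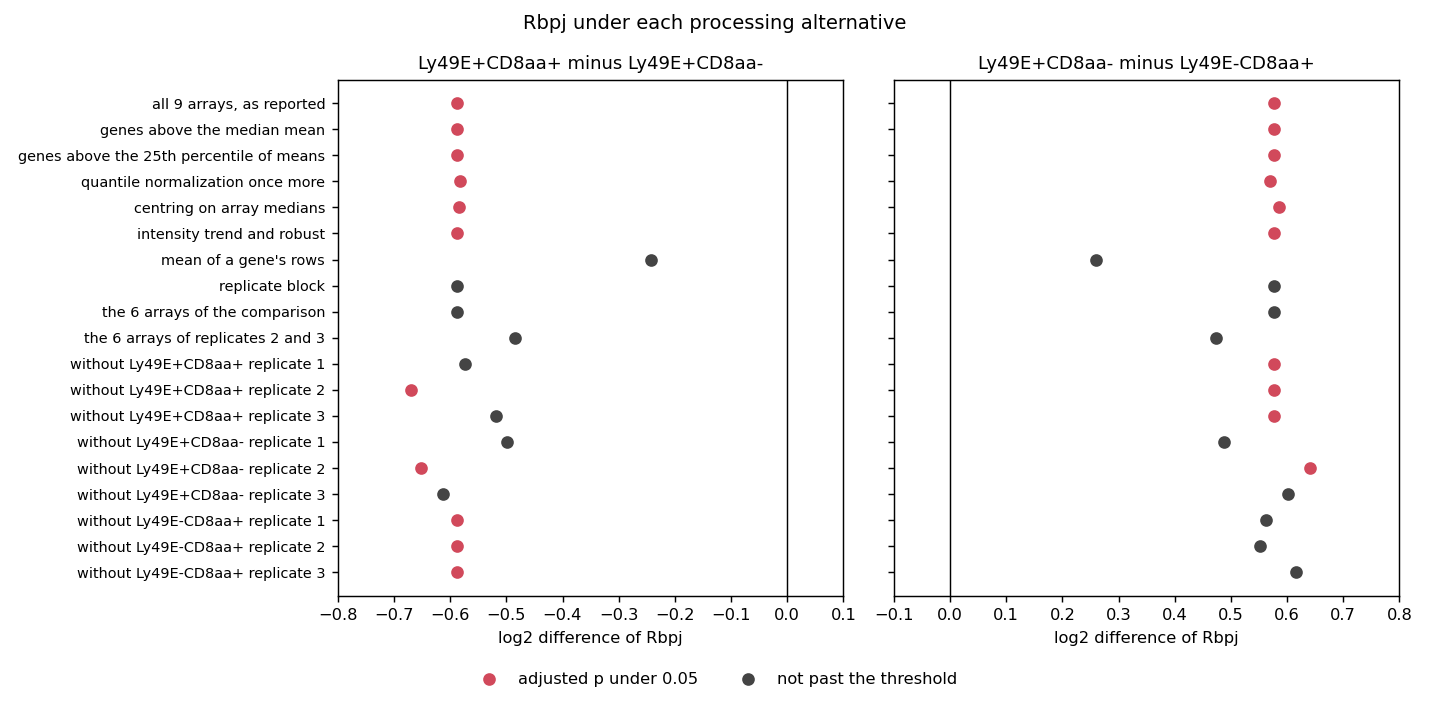
Log2 difference of Rbpj (x axis) as reported and under each of 18 alternatives (y axis), for Ly49E+CD8aa+ minus Ly49E+CD8aa- at left and Ly49E+CD8aa- minus Ly49E-CD8aa+ at right. All values lie on 1 side of 0 in each panel, from -0.67 to -0.24 at left and from 0.26 to 0.64 at right. Most of the alternatives could not change the sign. Red points have an adjusted p under 0.05.

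The genes whose levels followed Rbpj most closely over the 9 arrays were Zfp36l1 (Pearson r = 0.978), which encodes an RNA-binding protein that promotes decay of messenger RNAs, Fam184b (r = 0.977), and Klf3 (r = 0.974), a Krüppel-like transcriptional repressor. The points share the same 9 arrays and the same 3 populations, and the correlations are given as a description. Zfp36l1 averaged 10.04 on Ly49E+CD8aa+ arrays, 10.68 on Ly49E+CD8aa- arrays and 10.05 on Ly49E-CD8aa+ arrays. Klf3 averaged 6.05 on Ly49E+CD8aa+ arrays, 7.56 on Ly49E+CD8aa- arrays and 6.09 on Ly49E-CD8aa+ arrays, so that it too was highest in the CD8aa- cells.

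RBPJ recognises DNA that holds the letters TGGGAA, and the bases before the start of Rbpj are shown because this is the member that was called. In the mouse build GRCm38.p6 of RefSeq, the 250 bases before the more upstream of 2 listed starts lie at chr5:53590096-53590345 on the plus strand. The capitals mark the exact matches, 1 to TGGGAA and 1 to its reverse complement TTCCCA, which begin 149 and 65 bases before the start and do not overlap.

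Rbpj: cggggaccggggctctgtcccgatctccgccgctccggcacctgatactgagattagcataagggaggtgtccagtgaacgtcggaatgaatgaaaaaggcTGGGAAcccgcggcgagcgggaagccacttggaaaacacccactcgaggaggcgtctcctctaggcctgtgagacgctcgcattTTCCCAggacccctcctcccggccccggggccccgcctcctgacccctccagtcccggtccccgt

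At least 1 match on either strand was present in 21.6% of 32851 such windows of 250 bases over all genes in the table, and 2 or more in 2.77%. Windows were listed for 8 of the 10 members, 10 windows in all, of which 3 held a match, those of both Rbpj starts and 1 of the 2 Maml2 starts. The 2 Rbpj windows overlap, and the match in the second is the TTCCCA already marked in the first. Windows were listed for 7 of the 8 called pathway genes described further on, all but Heyl. Of these 9 windows, 1 held a match. A match describes the letters only, and the array data do not bear on binding there.

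None of the 4 receptor genes passed the threshold in any comparison. Notch1, the receptor that drives T lineage commitment, read 7.74, 7.77 and 7.65 on Ly49E+CD8aa+ arrays, 7.49, 7.63 and 7.98 on Ly49E+CD8aa- arrays, and 7.69, 7.69 and 7.58 on Ly49E-CD8aa+ arrays. The 3 Ly49E+CD8aa- arrays held both the lowest and the highest value of all 9, and the groups overlapped in every comparison. Notch2, which is needed for marginal zone B cells and for a subset of dendritic cells, averaged 7.67 ± 0.06 on Ly49E+CD8aa+ arrays, 7.74 ± 0.02 on Ly49E+CD8aa- arrays and 7.74 ± 0.11 on Ly49E-CD8aa+ arrays (log2, SD, n = 3 each). The Ly49E+CD8aa+ arrays (7.60 to 7.72) lay just below those of Ly49E+CD8aa- (7.73 to 7.77), with a difference of -0.08 (limma adjusted p = 0.829).

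Notch3, known from the mural cells of blood vessels and from thymocytes, averaged 6.17 ± 0.12 on Ly49E+CD8aa+ arrays, 6.28 ± 0.05 on Ly49E+CD8aa- arrays and 6.29 ± 0.13 on Ly49E-CD8aa+ arrays (log2, SD, n = 3 each), and the groups overlapped. Notch4, known from endothelium, read 5.92, 5.89 and 5.93 on Ly49E+CD8aa+ arrays, 5.66, 5.78 and 5.83 on Ly49E+CD8aa- arrays, and 6.04, 5.89 and 5.89 on Ly49E-CD8aa+ arrays. The Ly49E+CD8aa- arrays were the lowest 3. The difference was 0.16 (SE 0.0713, limma adjusted p = 0.541) for Ly49E+CD8aa+ minus Ly49E+CD8aa- and -0.19 (SE 0.0713, limma adjusted p = 0.385) for Ly49E+CD8aa- minus Ly49E-CD8aa+. Over the 4 receptors and 3 comparisons, the largest difference in either direction was 0.19, and the 95% intervals lay between -0.35 and 0.33. Each interval holds for 1 gene in 1 comparison, and they were not adjusted for multiple tests.

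Markers of endothelium, mural cells and stroma, where Notch3 and Notch4 are used most, were called in 0 of 8 measured genes by limma in each comparison, with 0, 1 and 1 at an unadjusted p under 0.05. Their summed level was 10.06 to 10.33 on Ly49E+CD8aa+ arrays, 9.78 to 9.97 on Ly49E+CD8aa- arrays and 10.09 to 10.16 on Ly49E-CD8aa+ arrays (log2 of the summed signal, lowest and highest array). This sum was thus lowest on the Ly49E+CD8aa- arrays, as Notch4 was. The mean log2 level of the 8 genes overlapped between Ly49E+CD8aa+ (5.60 to 5.68) and Ly49E+CD8aa- (5.52 to 5.61). On Ly49E-CD8aa+ arrays it was 5.64 to 5.70. For Ly49E+CD8aa+ minus Ly49E+CD8aa-, the differences of the 8 ran from -0.11 to 0.41. The part of these markers in the Notch4 values was not tested.

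Maml2 encodes a Mastermind coactivator that joins RBPJ and the cut receptor on DNA. It read 8.46, 8.39 and 8.27 on Ly49E+CD8aa+ arrays, 8.44, 8.39 and 8.46 on Ly49E+CD8aa- arrays, and 8.52, 8.76 and 8.71 on Ly49E-CD8aa+ arrays. The Ly49E-CD8aa+ arrays were the highest 3, and the Ly49E+ populations overlapped each other. The difference was -0.29 (SE 0.0809, limma adjusted p = 0.909) for Ly49E+CD8aa+ minus Ly49E-CD8aa+ and -0.23 (SE 0.0809, limma adjusted p = 0.311) for Ly49E+CD8aa- minus Ly49E-CD8aa+, and neither passed. A second Maml2 row averaged 7.51 ± 0.40 on Ly49E+CD8aa+ arrays, 7.34 ± 0.08 on Ly49E+CD8aa- arrays and 7.51 ± 0.07 on Ly49E-CD8aa+ arrays (log2, SD, n = 3 each), with 1 high array, Ly49E+CD8aa+ replicate 3 at 7.97.

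Of the target and feedback genes, Nrarp had the largest difference and did not pass. Nrarp encodes a small ankyrin-repeat protein that is induced by Notch and limits the Notch complex in return. It read 5.66, 5.66 and 5.59 on Ly49E+CD8aa+ arrays, 5.91, 5.91 and 6.07 on Ly49E+CD8aa- arrays, and 5.54, 5.21 and 5.66 on Ly49E-CD8aa+ arrays. As for Rbpj, the Ly49E+CD8aa- arrays were the highest 3 of the 9 and the CD8aa+ populations overlapped. The difference was -0.33 (SE 0.110, limma adjusted p = 0.314) for Ly49E+CD8aa+ minus Ly49E+CD8aa-. It was 0.49 (SE 0.110, 95% interval 0.25 to 0.74, limma adjusted p = 0.0626) for Ly49E+CD8aa- minus Ly49E-CD8aa+, and the adjusted p came under 0.05 in 2 of 17 alternatives, after quantile normalization once more (0.0493) and without Ly49E-CD8aa+ replicate 3 (0.0416).

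Hes1, the basic helix-loop-helix repressor that is the best known Notch target, read 5.59, 5.58 and 5.35 on Ly49E+CD8aa+ arrays, 5.66, 5.58 and 5.67 on Ly49E+CD8aa- arrays, and 5.59, 5.58 and 5.55 on Ly49E-CD8aa+ arrays. The lowest array was Ly49E+CD8aa+ replicate 3, and the groups overlapped. Hey1, a related repressor that is switched on by Notch in vessels and heart, averaged 5.86 ± 0.01 on Ly49E+CD8aa+ arrays, 5.93 ± 0.15 on Ly49E+CD8aa- arrays and 5.83 ± 0.07 on Ly49E-CD8aa+ arrays (log2, SD, n = 3 each). Its highest array, at 6.10, was Ly49E+CD8aa- replicate 1. Over both genes and the 3 comparisons, the largest difference was 0.13 in size, the adjusted p were 0.682 or above, and the 95% intervals lay between -0.31 and 0.28. All Hes1 values lay below the median of genes on each array (5.89 to 6.01). By mean over the 9 arrays, Hes1 stood at percentile 43 of all genes, Nrarp at 45.3, and Hey1 and Notch4 at 48.6.

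Dtx1 encodes Deltex, an E3 ubiquitin ligase that binds the intracellular part of Notch and is itself induced by Notch in T cell precursors. It read 9.12, 9.05 and 9.15 on Ly49E+CD8aa+ arrays, 8.99, 9.14 and 8.96 on Ly49E+CD8aa- arrays, and 9.39, 9.23 and 9.31 on Ly49E-CD8aa+ arrays. The Ly49E-CD8aa+ arrays were the highest 3, while the Ly49E+ populations overlapped, as for the Maml2 row used. Between the Ly49E+ populations, Dtx1 had its higher mean in Ly49E+CD8aa+ and Maml2 in Ly49E+CD8aa-. The difference was -0.20 (SE 0.0740, limma adjusted p = 1) for Ly49E+CD8aa+ minus Ly49E-CD8aa+ and -0.28 (SE 0.0740, limma adjusted p = 0.13) for Ly49E+CD8aa- minus Ly49E-CD8aa+. Nrarp and Dtx1, both known as Notch targets, therefore had values of opposite sign in the comparison of Ly49E+CD8aa- with Ly49E-CD8aa+, and neither passed.

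**Figure D3:**
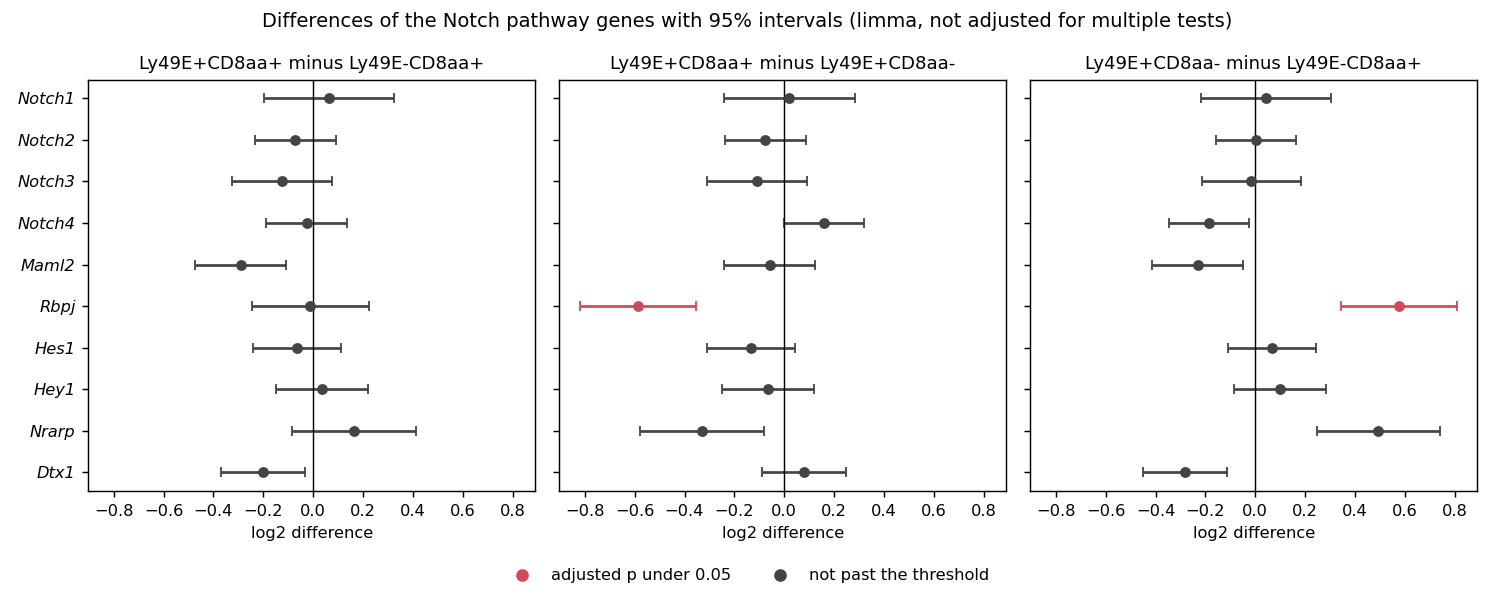
Log2 differences of the 10 Notch pathway genes (points) with 95% intervals from limma (bars, 6 residual degrees of freedom, not adjusted for multiple tests), 1 panel per comparison. Rbpj, in red, is the gene with an adjusted p under 0.05, at -0.59 in the middle panel and 0.58 in the right panel, while Nrarp lies nearest to it at -0.33 and 0.49.

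Of 69 further pathway genes in 6 lists, 65 were measured. Set against Ly49E-CD8aa+, Ly49E+CD8aa+ cells had 0 higher and 1 lower among them, beside 0.0201% and 0.11% of all genes, and the 1 was Il7r. At an unadjusted p under 0.05 by limma there were 6, beside 834 of the 19938 genes. Set against Ly49E+CD8aa-, the same cells had 1 higher and 6 lower, beside 0.476% and 1.22% of all genes. Ly49E+CD8aa- cells had 5 higher and 1 lower when set against Ly49E-CD8aa+, beside 1.35% and 0.802% of all genes. Il2ra, Il7r and Gata3, which were known to differ in these data when the lists were drawn up, are among the genes counted, so the counts are no independent evidence. The median differences of the 65 were -0.01, 0.04 and -0.05, against 0, 0.03 and -0.02 over all genes.

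Among ligands, 1 of 7 measured genes was called, Jag1, which encodes the Notch ligand Jagged1. It read 5.05, 4.86 and 4.99 on Ly49E+CD8aa+ arrays, 5.50, 5.43 and 5.62 on Ly49E+CD8aa- arrays, and 5.02, 4.70 and 4.92 on Ly49E-CD8aa+ arrays. All of its values lay below the median of genes on each array (5.89 to 6.01). It was highest on the 3 Ly49E+CD8aa- arrays, with differences of -0.55 (SE 0.0965, limma adjusted p = 0.0222) for Ly49E+CD8aa+ minus Ly49E+CD8aa- and 0.64 (SE 0.0965, limma adjusted p = 0.00903) for Ly49E+CD8aa- minus Ly49E-CD8aa+. The first of these calls ended without Ly49E+CD8aa+ replicate 2 or 3 or Ly49E+CD8aa- replicate 1 or 3 (limma adjusted p from 0.0771 to 0.0988), while the second held with any 1 array left out.

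Of 13 measured genes for receptor glycosylation and cleavage, Psen2 was called. It encodes presenilin 2, a catalytic subunit of the gamma-secretase that makes the final cut in Notch. It averaged 7.14 ± 0.21 on Ly49E+CD8aa+ arrays, 7.96 ± 0.17 on Ly49E+CD8aa- arrays and 7.41 ± 0.23 on Ly49E-CD8aa+ arrays (log2, SD, n = 3 each). Ly49E+CD8aa+ cells had less of it than Ly49E+CD8aa- cells, with a difference of -0.82 (SE 0.145, limma adjusted p = 0.024), while the 0.54 of Ly49E+CD8aa- minus Ly49E-CD8aa+ did not pass (0.137). The call ended without Ly49E+CD8aa+ replicate 2 or 3 or any 1 of the Ly49E+CD8aa- arrays (limma adjusted p from 0.0626 to 0.107). Of 12 measured genes of receptor trafficking and turnover, 0 were called by limma, with 0, 1 and 1 at an unadjusted p under 0.05 in the 3 comparisons.

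Of 18 measured coactivators and corepressors, L3mbtl3 was called, which encodes a methyl-lysine reader known to bind RBPJ and repress its targets. It averaged 8.06 ± 0.06 on Ly49E+CD8aa+ arrays, 7.92 ± 0.005 on Ly49E+CD8aa- arrays and 8.25 ± 0.06 on Ly49E-CD8aa+ arrays (log2, SD, n = 3 each). Ly49E+CD8aa- cells had less of it than Ly49E-CD8aa+ cells, with a difference of -0.33 (SE 0.0628, limma adjusted p = 0.028), and its groups did not overlap in any of the 3 comparisons. The call ended without Ly49E+CD8aa+ replicate 3, any 1 Ly49E+CD8aa- array, or Ly49E-CD8aa+ replicate 1 or 3 (limma adjusted p from 0.0524 to 0.102), with an intensity trend (0.0663) and with the 6 arrays of the comparison alone (0.0642), and it was kept in 8 of 18 alternatives. The F test did not call L3mbtl3 (adjusted p = 0.0717).

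Of 7 other Hes and Hey factors, Heyl was called, a relative of Hey1 known as a target of Notch3 in smooth muscle. It read 8.49, 8.50 and 8.61 on Ly49E+CD8aa+ arrays, 8.02, 7.78 and 7.98 on Ly49E+CD8aa- arrays, and 8.26, 8.26 and 8.46 on Ly49E-CD8aa+ arrays. Its order ran opposite to that of Rbpj, with Ly49E+CD8aa- lowest. For Ly49E+CD8aa+ minus Ly49E+CD8aa- the difference was 0.61 (SE 0.0888, limma adjusted p = 0.00777), a call that held with any 1 array left out, and the -0.41 of Ly49E+CD8aa- minus Ly49E-CD8aa+ did not pass (0.0579).

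Of 8 measured lymphoid genes known as Notch targets in T cells or T cell leukaemia, 4 (Igf1r, Il2ra, Il7r and Gata3) were lower in Ly49E+CD8aa+ when set against Ly49E+CD8aa-, and these were also higher in Ly49E+CD8aa- when set against Ly49E-CD8aa+. Igf1r, the receptor for insulin-like growth factor 1, read 4.47, 4.09 and 4.38 on Ly49E+CD8aa+ arrays, 6.02, 5.51 and 5.53 on Ly49E+CD8aa- arrays, and 4.44, 4.31 and 4.36 on Ly49E-CD8aa+ arrays. The 2 differences were -1.38 and 1.32 (SE 0.147, limma adjusted p = 0.00128 and 0.00136), and both CD8aa+ populations lay below the 25th percentile of genes. Il2ra, which encodes the IL-2 receptor alpha chain, was at 4.96 ± 0.06 on Ly49E+CD8aa+ arrays, 8.37 ± 0.13 on Ly49E+CD8aa- arrays and 4.87 ± 0.38 on Ly49E-CD8aa+ arrays. Il7r, which encodes the IL-7 receptor alpha chain, was at 4.92 ± 0.26, 10.37 ± 0.24 and 6.45 ± 0.33, and Gata3, a transcription factor of T cells and innate lymphoid cells, at 8.43 ± 0.10, 8.94 ± 0.10 and 8.47 ± 0.17 in the same populations (log2, SD, n = 3 each). For Il2ra the differences were -3.41 and 3.50 (SE 0.165, limma adjusted p = 5.47e-06 and 4.97e-06), and for Il7r they were -5.44 and 3.92 (SE 0.192, limma adjusted p = 8.99e-07 and 6.16e-06). Il7r also separated the CD8aa+ populations, at -1.52 for Ly49E+CD8aa+ minus Ly49E-CD8aa+ (limma adjusted p = 0.0303), a call that ended without any 1 of 8 of the 9 arrays, all but Ly49E-CD8aa+ replicate 2 (0.0647 to 0.162). For Gata3 they were -0.51 and 0.47 (SE 0.0985, limma adjusted p = 0.0366 and 0.0456). The first Gata3 call ended without any 1 Ly49E+ array or Ly49E-CD8aa+ replicate 2 (0.062 to 0.14), and the second without any 1 of the 9 arrays (0.0612 to 0.17). These genes answer to many signals besides Notch.

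**Figure D4:**
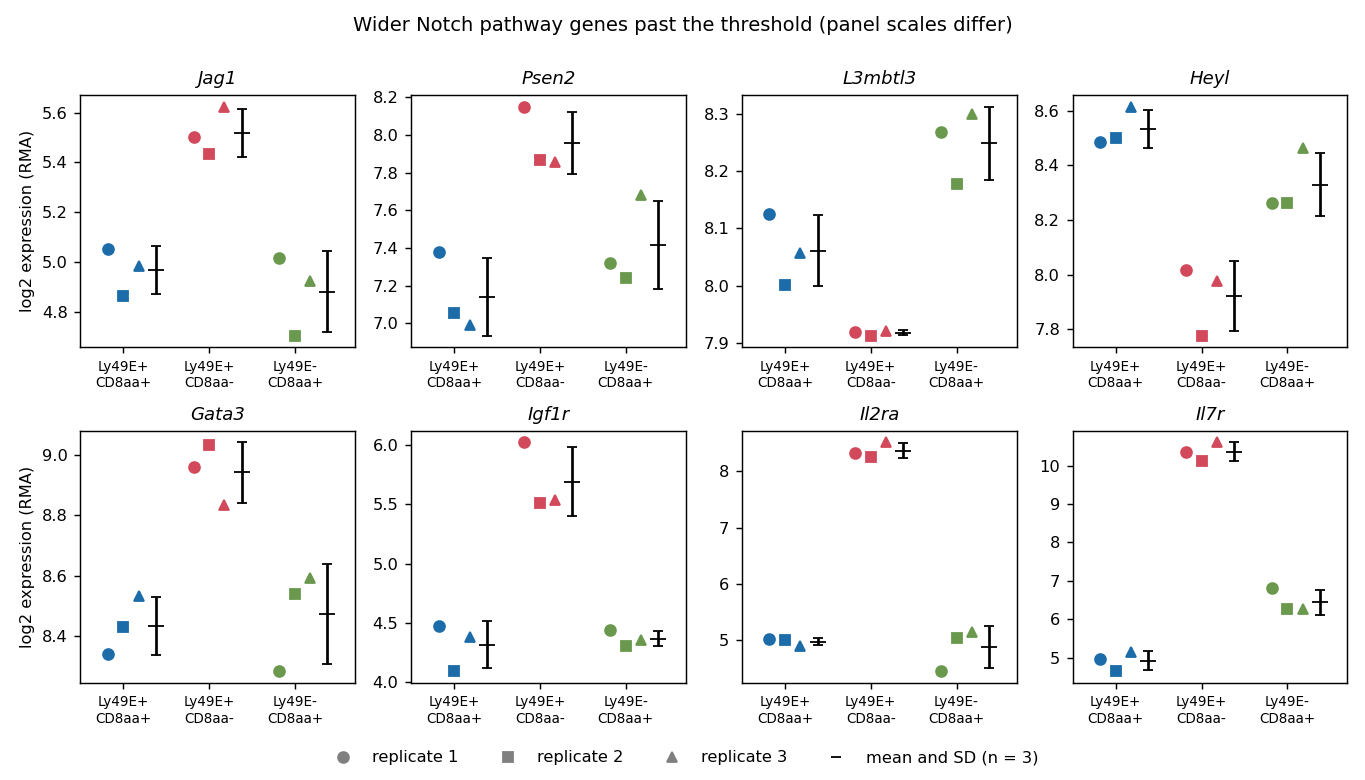
Log2 expression of the 8 called genes of the wider Notch pathway, by population from Ly49E+CD8aa+ at left through Ly49E+CD8aa- to Ly49E-CD8aa+, with single arrays by replicate number and the mean and SD of 3 arrays, on panel scales that differ. Jag1, Psen2, Gata3, Igf1r, Il2ra and Il7r are highest in Ly49E+CD8aa-, while L3mbtl3 and Heyl are lowest there.

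Other cell types of the gut use Notch as well, and their markers varied between arrays. The summed level of 10 enterocyte markers was 12.89 to 13.39 on Ly49E+CD8aa+ arrays, 12.66 to 13.34 on Ly49E+CD8aa- arrays and 12.56 to 13.42 on Ly49E-CD8aa+ arrays (log2 of the summed signal, lowest and highest array), with 0 of 10 called by limma in any comparison and 1 at an unadjusted p under 0.05 in each. For 7 markers of crypt and secretory epithelium it was 9.36 to 10.10, 8.90 to 10.27 and 8.97 to 9.73 in the same order, with 0 called and 0 at an unadjusted p under 0.05. The populations thus overlapped in both lists, and the replicate 1 arrays stood highest in each. With the 6 arrays of replicates 2 and 3, an alternative chosen after seeing the data, the Rbpj differences were -0.49 for Ly49E+CD8aa+ minus Ly49E+CD8aa- and 0.47 for Ly49E+CD8aa- minus Ly49E-CD8aa+, and 0 of the 10 genes were called (limma adjusted p = 0.313 and 0.278 for Rbpj).

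Markers of dendritic cells, some of which depend on Notch2, were called as lower in 3 of 10 genes in Ly49E+CD8aa+ and in 3 of 10 in the Ly49E+CD8aa- cells, each against Ly49E-CD8aa+. Their summed level was 10.87 to 10.99 on Ly49E+CD8aa+ arrays, 11.01 to 11.17 on Ly49E+CD8aa- arrays and 11.24 to 11.72 on Ly49E-CD8aa+ arrays, highest in the population where Dtx1 and Maml2 also had their highest arrays. The part of such cells in the Dtx1 and Maml2 values was not tested. Between Ly49E+CD8aa+ and Ly49E+CD8aa-, where Rbpj differed, 0 of the 10 dendritic cell markers were called, with 1 at an unadjusted p under 0.05 by limma. Their summed level was still higher on each Ly49E+CD8aa- array than on any Ly49E+CD8aa+ array, as Rbpj was. Their mean log2 level overlapped, at 6.36 to 6.48 on Ly49E+CD8aa+ arrays and 6.45 to 6.52 on Ly49E+CD8aa- arrays. The differences of the 10 markers ran from -0.38 to 0.10 in this comparison, with a median of -0.04. The part of these markers in the Rbpj values was not tested. For 5 macrophage markers the summed level was 8.04 to 8.06 on Ly49E+CD8aa+ arrays, 7.52 to 7.68 on Ly49E+CD8aa- arrays and 8.19 to 8.94 on Ly49E-CD8aa+ arrays, with 1 called as lower in each comparison with Ly49E-CD8aa+. The macrophage sum was thus lowest on the Ly49E+CD8aa- arrays, where Rbpj was highest. For Ly49E+CD8aa+ minus Ly49E+CD8aa-, the differences of the 5 markers ran from -0.09 to 0.78, with a median of -0.007. The mean log2 level of the 5 overlapped between these populations, at 4.88 to 4.95 and 4.68 to 4.90. It was 5.26 to 5.68 on Ly49E-CD8aa+ arrays. The part of these markers in the Rbpj values was not tested. For 3 B cell markers the summed level was 5.57 to 5.76 on Ly49E+CD8aa+ arrays, 5.64 to 5.67 on Ly49E+CD8aa- arrays and 5.96 to 6.12 on Ly49E-CD8aa+ arrays, again highest where Dtx1 and Maml2 were. Blnk, an adaptor of the B cell receptor, was called as lower in each comparison with Ly49E-CD8aa+ (differences of -0.74 and -0.60). The differences of the 3 markers ran from -0.74 to 0.18 and from -0.60 to 0.02 there. Their mean level (3.96 to 4.44 over the arrays) lay below the 25th percentile of genes on each array (4.67 to 4.79). The part of the macrophage and B cell marker transcripts in the Dtx1 and Maml2 values was not tested either. No marker is at 0, since RMA gives every row a value.

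**Figure D5:**
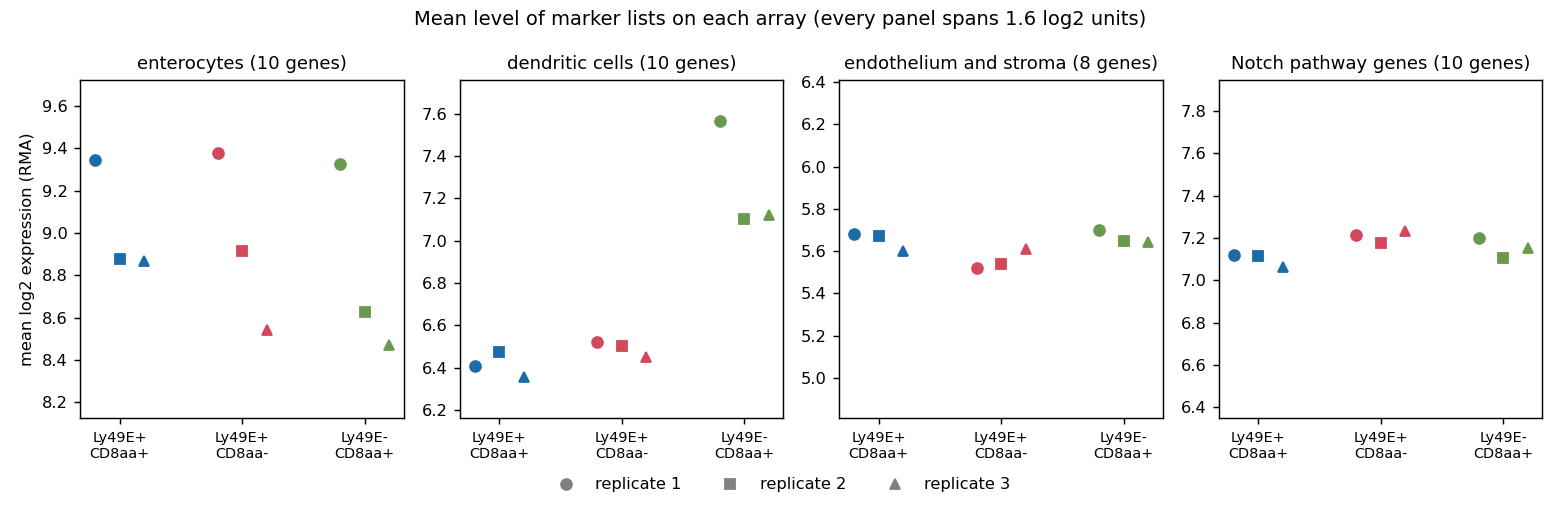
Mean log2 level of 3 marker lists and of the 10 Notch pathway genes on each array, by population and replicate number, with every panel spanning 1.6 log2 units. Enterocyte markers are highest on the replicate 1 array of each population, at 9.34, 9.38 and 9.33, and dendritic cell markers are highest on the 3 Ly49E-CD8aa+ arrays.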

How the data were processed

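The deposited table held 35556 rows and 9 arrays of log2 values that the authors made with RMA, per the submitters' processing notes. The values themselves (1.84 to 13.84) put the scale at log2. Neither the RMA version nor the genome build nor any later centring is given in the sources used here. Without detection calls, low values cannot show that a transcript is absent, and the number of arrays limits the precision.

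Of the rows, 21789 had 1 symbol in the platform annotation, 1621 had several and 12146 were not listed. Symbols were updated through gene identifiers (21698 matched), and the row with the highest mean stood for a gene, which left 19938 genes. Among members, Rbpj and Maml2 had 2 rows each, and 6 rows naming a member with another gene were left out.

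Populations were compared with limma 3.58.1 in R 4.3.3, with a mean per population over all 9 arrays, no block and 2-sided tests (prior degrees of freedom 3.08, residual 6), and the fit was tested on simulated data. Differences are the first-named population minus the second. The same replicate numbers did not meet the rule for pairing (every pair's correlation over 0.1). The alternatives were a second quantile normalization, centring on array medians, filters at the 25th percentile and the median of gene means, the mean of a gene's rows, an intensity trend with robust estimation, a replicate block, the 6 arrays of a comparison, each array left out in turn, and, chosen after seeing the data, replicates 2 and 3 alone.

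The members, lists and tests were chosen with earlier results of these data known. The genes named were the 10 members, the called genes of the 6 pathway lists up to 6 per list, and the 3 genes most like each member past the F test. Some genes of the lists are not reported here. Promoter sequences are from RefSeq, build GRCm38.p6.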

Additional observations from a re-analysis of the deposited data

How the results depend on the processing

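The 10 members had 528 differences under the alternatives, of which 485 kept their direction and their side of the threshold, 17 (all of Rbpj) lost the call, 2 (of Nrarp) gained it, and 24 changed sign. The count of 1 member called, in the comparison of Ly49E+CD8aa+ with Ly49E+CD8aa-, became 0 with the mean of a gene's rows, with the replicate block (limma adjusted p = 0.051), with the 6 arrays of the comparison (0.0993) and with the 6 arrays of replicates 2 and 3, and 0 to 1 with an array left out. In the comparison of Ly49E+CD8aa- with Ly49E-CD8aa+ it became 2 after quantile normalization once more, 0 under the same 4 settings (0.0515 with the replicate block and 0.0521 with the 6 arrays of the comparison), and 0 to 1 with an array left out. The F test called 0 with the mean of a gene's rows, the replicate block and the 6 arrays of replicates 2 and 3, and 0 to 1 with an array left out. Deviations of same-numbered arrays correlated from -0.063 to 0.222, with 4 of 9 pairs over 0.1, among them all 3 pairs of replicate 1 arrays (0.127 to 0.222), and arrays deviated most like their own number in 10 of 18 matches, a hint from the data, not the design, of variation shared by number. The F test gave Rbpj an adjusted p of 0.0648 with the replicate block, and L3mbtl3 had 0.0541 for its difference. The cause of these losses was not tested, and the fits that leave arrays out also rest on fewer arrays.

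Over all genes, the 4 higher genes of Ly49E+CD8aa+ against Ly49E-CD8aa+ became 0 with the 6 arrays of the comparison and 0 with those of replicates 2 and 3, and 1 to 4 with an array left out. The 22 lower ones became 11 above the median mean, 14 with the replicate block, 0 and 4 in the 2 fits of 6 arrays, and 4 to 28. Against Ly49E+CD8aa-, the 95 higher genes became 62 with the 6 arrays of the comparison, 20 with replicates 2 and 3, and 55 to 87, and the 244 lower ones became 101 with replicates 2 and 3. For Ly49E+CD8aa- against Ly49E-CD8aa+, the 269 higher genes became 119 with replicates 2 and 3, and the 160 lower ones 78 with the 6 arrays of the comparison, 46 with replicates 2 and 3, and 82 to 130. The 405 of the F test became 108 with replicates 2 and 3, and 248 to 332 with an array left out.

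In all, 30 differences changed sign, none larger than 0.146 in size and none with an adjusted p under 0.742. With the 6 arrays of replicates 2 and 3, Hey1 became 0.024 and Notch1 -0.094 (Ly49E+CD8aa+ against Ly49E+CD8aa-), Notch3 0.031 (Ly49E+CD8aa- against Ly49E-CD8aa+), and Notch2 0.019, Notch4 0.019 and Il2ra -0.146 (Ly49E+CD8aa+ against Ly49E-CD8aa+). With the mean of a gene's rows Maml2 became 0.054 against Ly49E+CD8aa- and Rbpj 0.017 against Ly49E-CD8aa+, and with centring on array medians Rbpj became 0.002 there, and Notch2 became -0.017 after quantile normalization once more. With an array left out, differences of Ly49E+CD8aa+ against Ly49E-CD8aa+ ranged from -0.052 to 0.023 for Notch4, -0.094 to 0.057 for Rbpj, -0.108 to 0.015 for Hes1, -0.003 to 0.155 for Jag1, -0.125 to 0.229 for Il2ra, -0.133 to 0.023 for Gata3 and -0.133 to 0.058 for Igf1r. Those of Ly49E+CD8aa+ against Ly49E+CD8aa- ranged from -0.085 to 0.162 for Notch1 and -0.116 to 0.021 for Hey1, and those of Ly49E+CD8aa- against Ly49E-CD8aa+ from -0.099 to 0.148 for Notch1, -0.048 to 0.059 for Notch2 and -0.061 to 0.058 for Notch3. Of 426 differences of the 8 further pathway genes, 57 lost the call. Il2ra and Il7r, in both comparisons with Ly49E+CD8aa-, kept theirs in 18 of 18 alternatives, and Igf1r in 17 of 17.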

Other observations

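A few further pathway genes, chosen after their values were seen, did not pass the threshold but had arrays of Ly49E+CD8aa- that did not overlap those of Ly49E-CD8aa+. Tle3, a Groucho corepressor that works with Hes factors, read 8.72, 8.81 and 8.79 on Ly49E+CD8aa+ arrays, 9.02, 9.02 and 9.04 on Ly49E+CD8aa- arrays, and 8.87, 8.67 and 8.75 on Ly49E-CD8aa+ arrays (log2 levels), with differences of -0.25 and 0.26 (limma adjusted p = 0.157 and 0.123) in the 2 comparisons with Ly49E+CD8aa-. Maml3, a Mastermind coactivator like Maml2, read 6.53, 6.77 and 6.37 on Ly49E+CD8aa+ arrays, 6.33, 6.14 and 6.20 on Ly49E+CD8aa- arrays, and 7.04, 6.91 and 6.50 on Ly49E-CD8aa+ arrays, and its difference of Ly49E+CD8aa- minus Ly49E-CD8aa+ was -0.59 (limma adjusted p = 0.105). Maml2 and Maml3 thus both had their highest means in Ly49E-CD8aa+. Ptcra, which encodes the pre-T cell receptor alpha chain and is a Notch target in thymocytes, had a difference of -0.25 (limma adjusted p = 0.0686) in the same comparison.

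In 60.5% of the 19938 genes, and in 8 of the 10 members, at least 2 arrays carried the same value to the last deposited digit. Hes1, for example, had 1 such value on the replicate 2 array of each population.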
